A study of Mus musculus with 74 samples.

Results

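The epithelium of the mouse small intestine was compared between 2 RNA-seq libraries labelled E18 and 2 labelled E16, where E is the embryonic day. These are 4 of the 74 samples of the series and 4 of its 31 RNA libraries, and they were chosen by their labels alone. Both groups are wild-type CD1 embryos without treatment. At E16 the gut had been digested for 30 min in 0.25% trypsin, and cells carrying the epithelial surface protein Epcam were then sorted by flow cytometry. For E18, villi were released by 45 min in 5 mM EDTA at 4 °C and dissociated with TrypLE, and the labels name no sort. Stage and isolation changed together, and RNAs of the sex chromosomes, given at the end, also differed. The parts of stage, isolation and sex in any difference between the groups cannot be told apart. Nothing in the labels says how many embryos or litters went into a library, so the p-values measure only the spread between these libraries, which may be technical. Wild-type CD1 small intestine at E12 and at E14, sorted for Epcam after trypsin with its cell type given as midgut, gave the earlier steps (2 libraries each). The test also covered the other embryonic libraries of the series, which helped to estimate the spread. Among them were wild-type forestomach and hindstomach at E12, E14 and E16. The others were small intestine with Cdx2 deleted at E10 (Cdx2f/f with Shh-Cre, embryos at day 16), at E13 (embryos at day 16) or at E15 (embryos at day 18). The groups deleted at E13 and at E15 were Cdx2f/f with Villin-Cre, of a B6;129 background. A pair of adult libraries was used for levels only. They came from ileal villi released with EDTA from Cdx2 f/f mice without Cre, of a B6;129 mixed background, that had been injected with sunflower oil.

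Late in gestation the small intestine changes from a growing tube into an absorbing organ. Enterocytes along the new villi build a brush border of packed microvilli, place digestive enzymes and transporters in it, and load dietary fat onto apolipoproteins, while division retreats to the pockets between villi. The mouse gut before weaning is known for lactase, for uptake of whole milk proteins into large lysosomes and for making urea cycle intermediates. Sucrase-isomaltase and trehalase are textbook genes of the program that replaces it at weaning.

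Levels are counts per 1000000 of the scaled library total (CPM), first for replicate 1 and then for replicate 2. Differences are log2 fold changes of the libraries labelled E18 over E16, written ± their standard error. A gene was called when it passed an adjusted p of 0.05 over all 17239 tested genes in edgeR's quasi-likelihood test and moved by a log2 of 1 or more, up or down. Total counts were 18306362 and 16685602 at E16 and 17476863 and 26340596 for the libraries labelled E18, where 3 counts correspond to 0.151 to 0.247 CPM. The reads carry no molecular identifiers, and such floors allow for counting error alone. A gene at 0 in both libraries of a group is given an "at least" fold against 3 counts per library, and no fold is given where any library of the 4 held 1 to 10 counts. Values from E14 to E16 stand beside those from E16 to E18 as a description, since both steps share the E16 libraries.

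Several genes of the libraries labelled E18 stood nearer to adult levels than to those of E16. H19, an imprinted fetal RNA, was at 1041 and 923 CPM at E16, at 0.164 and 0.0549 CPM in the libraries labelled E18 and at 0.189 and 2.39 CPM in adult ileum. Igf2, the fetal growth factor beside it, was at 901 and 851 CPM at E16 and 2.3 and 1.87 CPM in the libraries labelled E18, below the 54.8 and 10.7 CPM of the adult. These fetal genes were thus near 0 in the later pair, and both pairs were far apart. Sucrase-isomaltase (Sis) went the other way, with 7.15 and 6.82 CPM at E16, 9169 and 9281 CPM in the libraries labelled E18 and 8576 and 6920.4 CPM in the adult. Cd3e, a subunit of the T cell receptor complex, stood at 0.956 and 1.04 CPM at E16 and 66.1 and 65.7 CPM later, above the 6.32 and 9.74 CPM of the adult. Across 17239 genes, which are not independent replicates, Spearman's rho of the libraries labelled E18 was 0.944 to 0.953 with adult ileum, 0.824 to 0.826 with E16 and 0.728 to 0.730 with E14. E16 and E14 correlated at 0.897 to 0.898. The part of stage, isolation or sample identity in these values was not tested, and "labelled E18" is kept throughout.

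**Figure D1:**
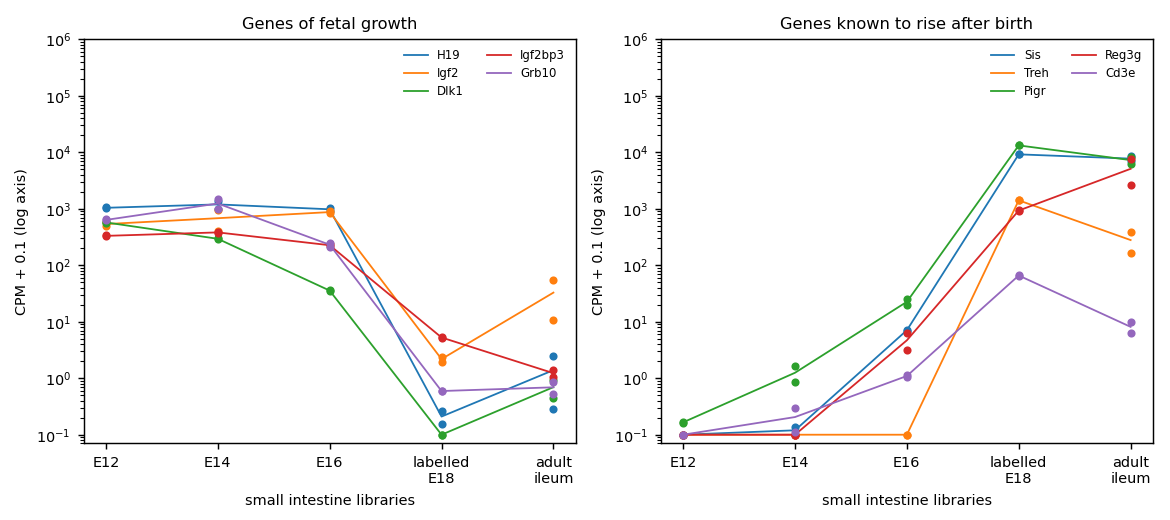
Levels of fetal growth genes (left) and of genes known to rise late (right) in small intestine libraries at E12, E14 and E16, labelled E18, and in adult ileum; the y axis is CPM + 0.1 on a log axis, points are single libraries and lines join group means. H19 falls from 1041 and 923 CPM at E16 to 0.164 and 0.0549 CPM, while Sis climbs from 7.15 and 6.82 to 9169 and 9281 CPM.

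The libraries labelled E18 also held less RNA of other tissues. Markers of mesenchyme and muscle summed to 1553 and 1701 CPM at E16 and to 40.6 and 38.8 CPM in the libraries labelled E18, and 13 of 14 were called lower, with Lum, Actg2, Des and Cnn1 at 0 counts in both. Pancreatic acinar markers summed to 1950 and 1811 CPM at E16 and then to 25.0 and 27 CPM, and 10 of 11 were called lower, with Cpa1, Cela2a, Cela3b and Prss1 at 0 counts in both. Blood markers summed to 201 and 202 CPM and then to 1.56 and 0.823 CPM, and 5 of 6 were called lower, with the adult globins listed at 0 in every library. Endothelial, neural and mesothelial markers fell as sums from between 64.1 and 88.9 CPM to between 3.68 and 10.5 CPM. Immune markers moved apart: Ptprc, Cd74 and Cd3e of lymphocytes and antigen-presenting cells were called higher, and 6 of 14, among them the macrophage genes Csf1r, C1qa and C1qb, were called lower. The immune sum was 495 and 470 CPM at E16 and 1049 and 1092 CPM in the libraries labelled E18. As a share of all counts it rose less, from 0.0538% and 0.0516% to 0.0731% and 0.0755%. Of 23 epithelial genes 5 were called higher and 4 lower, close to the shares of all genes. They summed to 12541 and 12248 CPM and to 15963 and 15817 CPM, but as a share of all counts they went the other way, from 1.36% and 1.34% to 1.11% and 1.09%, so the direction of this sum depends on the TMM scaling. Epcam itself stood at 1284 and 1291 CPM at E16 and 1506 and 1479 CPM later (log2 fold change 0.21 ± 0.13, edgeR adjusted p 0.172), with a log2 fold change of -0.08 under upper quartile scaling. In bulk libraries fewer cells of a type and less RNA per cell cannot be told apart.

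**Figure D2:**
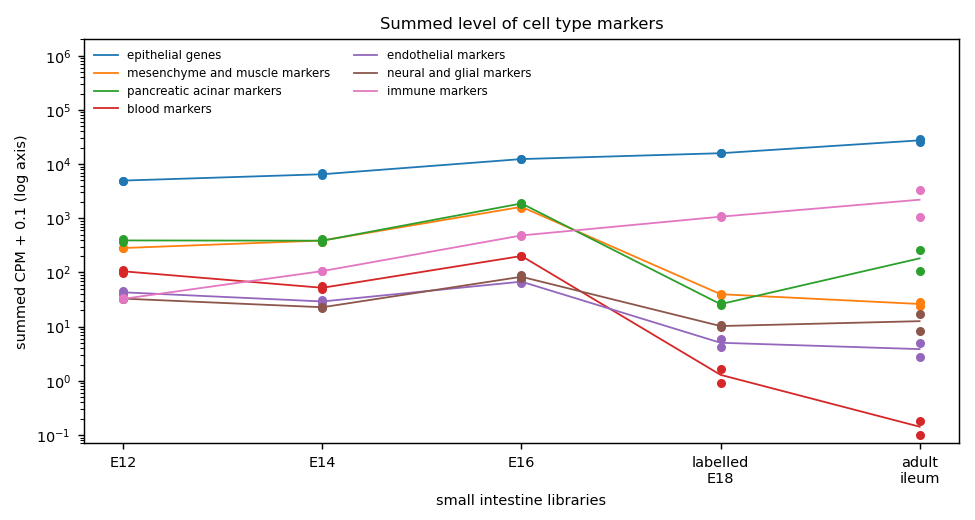
Summed CPM + 0.1 (log axis) of 7 marker lists in small intestine libraries at E12, E14 and E16, labelled E18, and in adult ileum; each point is 1 library and lines join group means. The mesenchyme sum drops from 1553 and 1701 CPM at E16 to 40.6 and 38.8 CPM, and the epithelial sum goes from 12541 and 12248 to 15963 and 15817 CPM, while its share of all counts goes from 1.36% and 1.34% to 1.11% and 1.09%.

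Promoters of 4 enterocyte genes that rose and 2 cell cycle genes that fell are shown as examples, chosen because they hold matches, since CDX2 and HNF4A, the intestinal factors that the field links to enterocyte genes, bind short known letters. Each line gives the 250 bases before the RefSeq start in build GRCm38.p6, 5′ to 3′ on the gene's strand, matched by symbol. The files use build mm9 per the submitters' processing notes, and these coordinates are RefSeq's own. Capitals mark TTTATNG (CDX) and CAAAGTCCA (HNF4) in the 4 enterocyte genes and TTTGAA (CHR, the cell cycle homology region) and CCAAT in the 2 cell cycle genes, searched on both strands.
Sis, sucrase-isomaltase, chr3:72967864-72968113: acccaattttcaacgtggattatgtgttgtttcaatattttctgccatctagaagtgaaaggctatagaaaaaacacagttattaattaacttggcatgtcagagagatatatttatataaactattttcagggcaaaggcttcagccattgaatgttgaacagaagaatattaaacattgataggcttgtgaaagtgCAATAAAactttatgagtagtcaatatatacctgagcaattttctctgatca
Treh, trehalase, chr9:44672983-44673232: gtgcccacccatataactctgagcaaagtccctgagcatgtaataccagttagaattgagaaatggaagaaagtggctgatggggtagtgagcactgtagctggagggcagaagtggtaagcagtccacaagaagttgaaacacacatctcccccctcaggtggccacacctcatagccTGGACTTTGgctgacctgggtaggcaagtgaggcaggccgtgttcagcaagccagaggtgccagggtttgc
Alpi, intestinal alkaline phosphatase, chr1:87101607-87101856: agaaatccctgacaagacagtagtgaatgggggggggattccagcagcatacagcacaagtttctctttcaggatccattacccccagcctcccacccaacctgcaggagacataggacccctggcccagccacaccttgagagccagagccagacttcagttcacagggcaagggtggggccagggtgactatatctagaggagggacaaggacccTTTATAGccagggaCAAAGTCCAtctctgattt
Fabp1, fatty acid binding protein of the proximal gut, chr6:71199629-71199878: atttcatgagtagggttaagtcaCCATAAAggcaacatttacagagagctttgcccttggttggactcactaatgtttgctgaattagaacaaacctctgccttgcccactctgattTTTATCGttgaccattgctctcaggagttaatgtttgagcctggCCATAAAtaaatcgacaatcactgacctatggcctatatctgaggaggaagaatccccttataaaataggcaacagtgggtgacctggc
Ccnb2, cyclin B2, chr9:70421555-70421804: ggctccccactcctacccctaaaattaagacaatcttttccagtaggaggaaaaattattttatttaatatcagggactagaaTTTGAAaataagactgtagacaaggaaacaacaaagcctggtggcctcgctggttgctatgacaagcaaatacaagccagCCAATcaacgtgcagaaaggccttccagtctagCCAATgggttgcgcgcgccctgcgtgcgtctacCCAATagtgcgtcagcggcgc
Aurka, aurora kinase A, chr2:172370571-172370820: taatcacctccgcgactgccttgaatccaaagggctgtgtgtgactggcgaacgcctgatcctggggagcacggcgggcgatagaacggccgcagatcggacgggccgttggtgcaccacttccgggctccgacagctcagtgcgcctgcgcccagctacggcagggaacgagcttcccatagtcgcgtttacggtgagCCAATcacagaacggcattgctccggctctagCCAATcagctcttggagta

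The Sis promoter holds 1 CDX match, at 52 bases before the start. Treh holds an HNF4 match at 71 bases, and Alpi an HNF4 match at 19 and a CDX match at 33 bases. Fabp1 has 3 CDX matches, at 227, 133 and 89 bases. The promoter of Ccnb2 carries a CHR match at 167 bases and CCAAT at 87, 54 and 21 bases, and that of Aurka carries CCAAT at 51 and 19 bases. Marked matches do not overlap in these 6 promoters. The promoters of Lct, Mgam, Anpep and Apoa4, not printed, hold neither the CDX nor the HNF4 letters in the same window. Over the brush border hydrolases, for which 20 of 23 genes were matched, 6 of 28 promoters (21.4%) held the CDX letters and 2 of 28 (7.14%) the HNF4 letters. Over the xenobiotic and retinoid genes, 38 of 40 matched, these were 4 of 50 (8.0%) and 2 of 50 (4.0%). The lipid list, which includes Fabp1, had 23 of 29 genes matched (79.3%), too few for its shares to be read, with 8 of 25 promoters holding the CDX letters and 0 of 25 the HNF4 letters. Among all 32851 promoters of the table these shares were 9.81% and 0.384%, and CCAAT stood in 33.8%. Only 35 of 46 cell cycle genes (76.1%) and 78.0% of all tested genes could be matched, so shares over those sets are void. A match describes letters in a window and is not evidence of binding.

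Between E16 and the libraries labelled E18, 7260 of 17239 tested genes (42.1%) were called, of which 3458 stood higher after E16 (20.1%) and 3802 stood lower (22.1%). With upper quartile scaling, under which the typical gene shifted by -0.29 in log2 (median over all tested genes), the split was 2774 higher and 4680 lower, so that 37.2% of calls were higher against 47.6% here. The preceding step from E14 to E16 called 2363 genes higher (13.7%) and 2052 lower (11.9%). Changes of large size were frequent: 1186 genes were called at a log2 fold change of 3 or more and 1640 at -3 or less. RNA became concentrated in fewer genes, since the 50 genes with most counts took 10.8% and 10.7% of counts at E16 and 19.1% and 19.1% in the libraries labelled E18. At least 1000 CPM was reached by 71 genes in both E16 libraries and by 164 genes in both libraries labelled E18. The TMM factors were 1.09 and 1.10 at E16 and 0.696 and 0.692 for the libraries labelled E18. A level of 1000 CPM is thus a smaller share of all counts in the later pair, and this count depends on the scaling. The 2 groups did not overlap in 13985 tested genes (81.1%), so that a gap between the pairs is the usual case here and sets no gene apart. Gene lists are read below against the 20.1% called higher, the 22.1% called lower and the median log2 fold change of -0.05 over all tested genes.

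**Figure D3:**
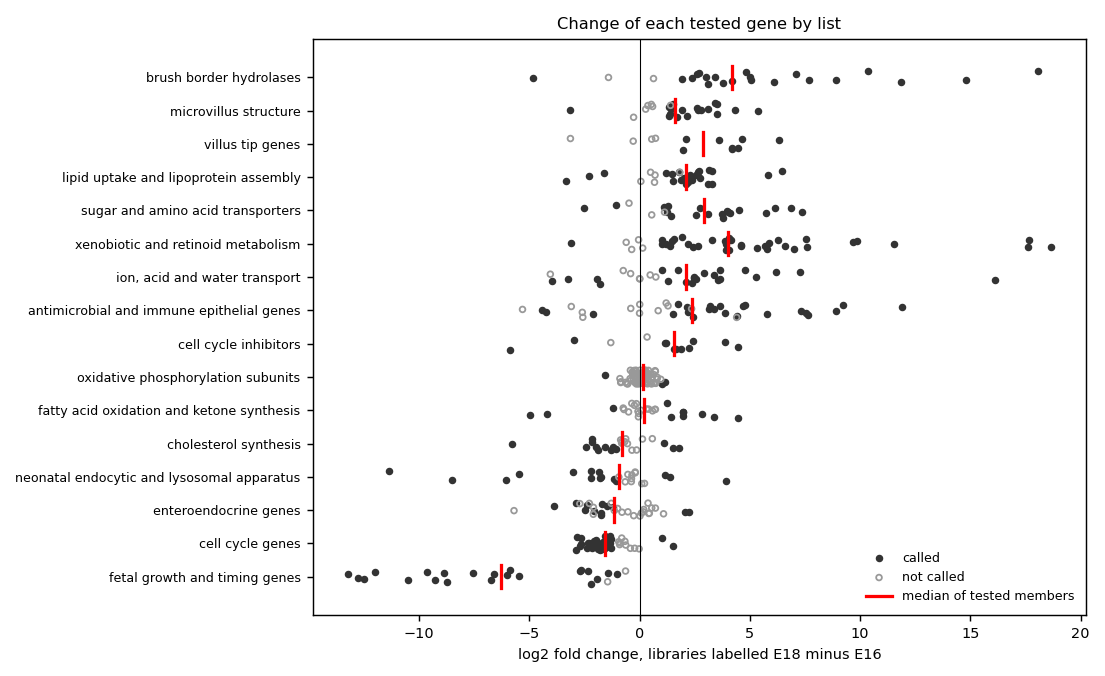
Log2 fold change of the libraries labelled E18 against E16 for each tested gene of 16 gene lists; filled points were called, open points were not, and the red bar is the list's median. Medians run from -6.30 for the fetal growth genes to 4.21 for the brush border hydrolases.

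The digestive enzymes of the brush border were higher almost as a group. Of 23 tested hydrolases, which cut sugars, peptides and lipids at the microvillus surface, 20 were called higher and 1 lower, with a median log2 fold change of 4.21. The list took 0.401% and 0.377% of all counts at E16 and 4.58% and 4.61% in the libraries labelled E18. Trehalase (Treh), which splits the fungal and insect sugar trehalose, had 0 counts in both E16 libraries and stood at 1421 and 1406 CPM in the libraries labelled E18, at least 8982-fold higher (edgeR adjusted p 1.56e-11). Enteropeptidase (Tmprss15), the duodenal protease that activates trypsinogen, also had 0 counts at E16 and reached 148 and 147 CPM, at least 936-fold higher (edgeR adjusted p 4.00e-07), against 0.566 and 0.427 CPM in adult ileum. Both genes thus appeared only in the later pair of these 4 libraries. Sis, whose levels and promoter are given above, had a log2 fold change of 10.37 ± 1.45 (edgeR adjusted p 4.04e-05). Lactase (Lct), the milk sugar enzyme, stood at 0.748 and 0.434 CPM at E14, 483 and 423 CPM at E16 and 4919 and 4921 CPM in the libraries labelled E18 (log2 fold change 3.44 ± 0.32, edgeR adjusted p 5.35e-08). It was therefore high together with Sis and Treh, and the adult pair held 3459 and 440.1 CPM of it. Alpi, which detoxifies bacterial lipopolysaccharide, went from 676 and 615 to 4104 and 4254 CPM (log2 fold change 2.69 ± 0.52, edgeR adjusted p 2.82e-04). The aminopeptidase Anpep went from 422 and 356 to 12719.7 and 13119.7 CPM (log2 fold change 5.05 ± 0.37, edgeR adjusted p 1.49e-09), and the starch enzyme maltase-glucoamylase (Mgam) from 110.1 and 89 to 6959 and 6869 CPM (log2 fold change 6.12 ± 0.60, edgeR adjusted p 6.05e-08). As in 81.1% of all tested genes, none of these pairs overlapped. The sphingomyelinase Enpp7 had 0 and 4 counts at E16 and 406 and 398 CPM later (edgeR adjusted p 8.76e-08; DESeq2 adjusted p 0.175).

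The exceptions were named after their values were seen. Alpl, the phosphatase of bone, liver and kidney, was the 1 hydrolase called lower, at 3.17 and 2.62 CPM at E16 and 0 and 0.165 CPM later (edgeR adjusted p 3.00e-06). Mep1a, the alpha subunit of meprin, stood at 124 and 141 CPM at E16 and 202 and 209 CPM later and was not called (log2 fold change 0.63 ± 0.78, edgeR adjusted p 0.519), while adult ileum held 2844 and 1898 CPM. Phospholipase B1 (Plb1) was at 1.21 and 3.06 CPM at E16 and 0.657 and 0.933 CPM later and at 3763 and 739 CPM in adult ileum. For Mep1a and Plb1 the libraries labelled E18 lay far below the adult ileum pair.

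**Figure D4:**
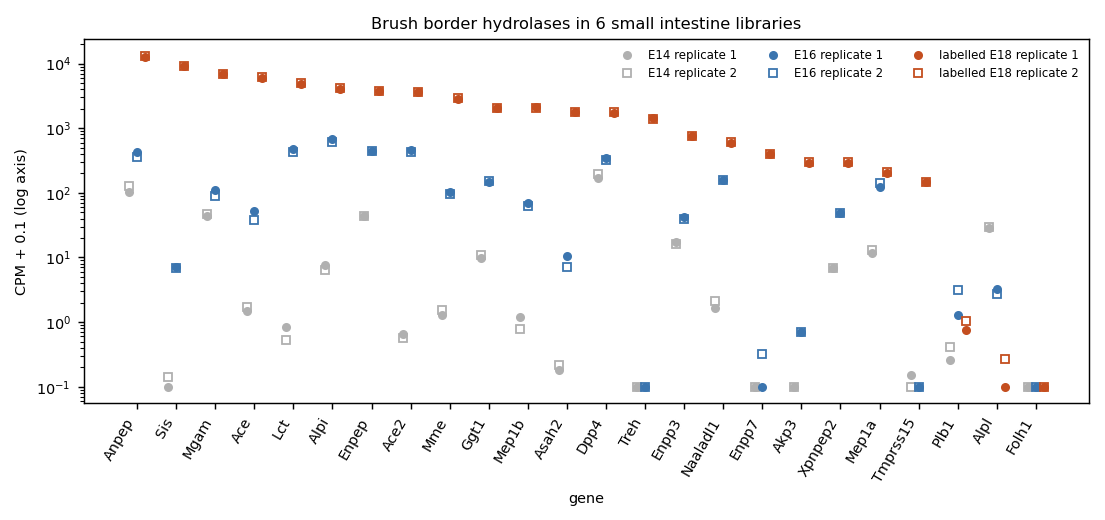
CPM + 0.1 (log axis) of each hydrolase in 6 small intestine libraries, ordered by the level in the libraries labelled E18; filled circles are replicate 1 and open squares replicate 2. Treh lies at 0 in all 4 libraries of E14 and E16 and at 1421 and 1406 CPM in the libraries labelled E18, and Alpl goes down.

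The scaffold of the microvillus was higher too, by smaller factors. Of 24 tested genes 17 passed as higher and 1 as lower, with a median of 1.62. Villin (Vil1), which bundles the actin core, was at 147 and 151 CPM at E14, 537 and 561 CPM at E16 and 5965 and 5922 CPM in the libraries labelled E18 (log2 fold change 3.44 ± 0.26, edgeR adjusted p 4.43e-09). The motor Myo1a, which ties the core to the membrane, stood at 176 and 153 CPM at E16 and 3316 and 3323 CPM later (log2 fold change 4.33 ± 0.43, edgeR adjusted p 6.74e-08). Cobl, an actin nucleator, showed the largest log2 fold change of the list, from 11.1 and 13.3 to 489 and 513 CPM (log2 fold change 5.36 ± 0.53, edgeR adjusted p 6.42e-08). Microvilli are linked at their tips by the protocadherins Cdhr2 and Cdhr5. Cdhr2 went from 350.3 and 316 to 3811 and 3758 CPM (log2 fold change 3.51 ± 0.33, edgeR adjusted p 5.73e-08) and Cdhr5 from 408 and 391 to 2469 and 2507 CPM (log2 fold change 2.64 ± 0.57, edgeR adjusted p 6.57e-04). Their myosin partner Myo7b went from 164 and 137 to 1709 and 1748 CPM (log2 fold change 3.52 ± 0.42, edgeR adjusted p 1.32e-06). Ezrin (Ezr), the membrane linker already at 751 and 662 CPM at E16, reached 1791 and 1807 CPM (log2 fold change 1.35 ± 0.12, edgeR adjusted p 1.29e-08). The bundler espin (Espn) went from 69.2 and 62.3 to 184 and 197 CPM (log2 fold change 1.54 ± 0.16, edgeR adjusted p 1.78e-07). The villin-like gene Vill, named after its value was seen, was the 1 member called lower, at 4.63 and 4.31 CPM at E16 and 0.657 and 0.384 CPM later (edgeR adjusted p 1.93e-07).

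Genes that take up fat and pack it into chylomicrons rose at both steps. From E14 to E16, 25 of 29 were called higher and 0 lower, and from E16 to the libraries labelled E18, 21 were called higher and 3 lower (median 2.11). The list took 2.22% and 2.15% of all counts at E16 and 5.90% and 5.93% in the libraries labelled E18. Apoa4, a chylomicron apolipoprotein, stood at 8.74 and 7.73 CPM at E14, 3912 and 3609 CPM at E16 and 16072 and 16381 CPM in the libraries labelled E18 (log2 fold change 2.11 ± 0.59, edgeR adjusted p 0.00541). Apob, the structural protein of the particle, went from 959 and 804 to 5828 and 5927 CPM (log2 fold change 2.74 ± 0.35, edgeR adjusted p 1.82e-06), and Mttp, which loads it with triglyceride, from 1750.5 and 1677 to 6255 and 6262 CPM (log2 fold change 1.87 ± 0.21, edgeR adjusted p 3.28e-07). The cytosolic carrier Fabp2 went from 1496 and 1495 to 9569 and 9517 CPM (log2 fold change 2.67 ± 0.26, edgeR adjusted p 5.04e-08), and Fabp1 from 1855 and 1813 to 8281 and 8144 CPM (log2 fold change 2.16 ± 0.42, edgeR adjusted p 2.36e-04). All 5 genes were thus several fold higher. Of the sterol carriers, Abcg5 and Abcg8 were low at E16. Abcg5, which forms with Abcg8 the pump that returns plant sterols to the lumen, went from 12 and 8.95 to 599.8 and 608 CPM (log2 fold change 5.85 ± 0.75, edgeR adjusted p 2.17e-06). Abcg8 went from 3.42 and 5.08 to 372 and 367 CPM (log2 fold change 6.44 ± 0.38, edgeR adjusted p 9.10e-09). The sterol importer Npc1l1 went from 145 and 127 to 1284 and 1345 CPM (log2 fold change 3.27 ± 0.55, edgeR adjusted p 4.91e-05; DESeq2 adjusted p 0.0516). The 3 members called lower were Acsl3, Scarb1 and Plin2. Plin2, which coats stored lipid droplets, was at 49.1 and 46.1 CPM at E14, 530.5 and 508 CPM at E16 and 173 and 167 CPM later (log2 fold change -1.61 ± 0.19, edgeR adjusted p 7.09e-07). The lipoprotein receptor Scarb1 stood at 109 and 86.7 CPM at E16 and 20.5 and 19.2 CPM later (log2 fold change -2.3 ± 0.13, edgeR adjusted p 5.47e-11), and the acyl-CoA synthetase Acsl3 at 188 and 180.3 CPM at E16 and 16.4 and 19.4 CPM later (log2 fold change -3.36 ± 0.23, edgeR adjusted p 6.60e-10).

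Carriers for sugars, peptides and amino acids followed the enzymes. Of 22 tested, 17 were called higher and 2 lower (median 2.91). Slc5a1, the sodium-driven glucose transporter, stood at 422 and 424 CPM at E16 and 6861 and 6847 CPM later (log2 fold change 4.02 ± 0.70, edgeR adjusted p 7.70e-05). Slc2a2, the exit carrier for glucose, went from 17.5 and 23 to 1067 and 1069 CPM (log2 fold change 5.72 ± 0.53, edgeR adjusted p 3.32e-08), and the fructose carrier Slc2a5 from 10.4 and 8.41 to 673 and 658 CPM (log2 fold change 6.15 ± 0.79, edgeR adjusted p 2.25e-06). Sugar carriers of both faces of the cell were thus higher. The peptide carrier Slc15a1 showed the largest log2 fold change of the list, from 5.54 and 3.66 to 776 and 762 CPM (log2 fold change 7.38 ± 0.56, edgeR adjusted p 2.44e-09). Neutral amino acid carrier Slc6a19 was at 0 and 0.0394 CPM at E14, 105 and 98.1 CPM at E16 and 1425 and 1371 CPM later (log2 fold change 3.78 ± 0.44, edgeR adjusted p 1.89e-06). The proton-coupled carrier Slc36a1 went from 5.99 and 2.57 to 499 and 506 CPM (log2 fold change 6.87 ± 0.62, edgeR adjusted p 2.32e-08). The members called lower were carriers that dividing cells use to take up amino acids. Slc7a5 stood at 57.6 and 57.6 CPM at E16 and 9.04 and 10.8 CPM later (log2 fold change -2.53 ± 0.28, edgeR adjusted p 3.68e-07), and the glutamine carrier Slc1a5 at 97.8 and 90.5 CPM at E16 and 43.1 and 45.9 CPM later (log2 fold change -1.08 ± 0.30, edgeR adjusted p 0.00530).

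Ion and acid transport showed 18 of 29 genes called higher and 4 lower (median 2.08), and 2 lower when any 1 of the 4 libraries was left out. Car4, the carbonic anhydrase of the brush border surface, had 0 counts at E16 and stood at 359 and 372 CPM in the libraries labelled E18, at least 2323-fold higher (edgeR adjusted p 2.87e-08). The sulfate carrier Slc13a1 went from 2.52 and 1.91 to 347 and 342 CPM (log2 fold change 7.27 ± 0.97, edgeR adjusted p 2.77e-05), and the chloride channel Cftr from 78.1 and 79 to 261 and 263 CPM (log2 fold change 1.74 ± 0.21, edgeR adjusted p 1.17e-06). The 2 guanylin peptides, which act on the same receptor, moved in opposite directions. Uroguanylin (Guca2b) stood at 69.8 and 60.8 CPM at E16 and 2481 and 2597 CPM later (log2 fold change 5.28 ± 0.69, edgeR adjusted p 4.95e-06). Guanylin (Guca2a) stood at 297 and 266 CPM at E16 and 82.8 and 81.5 CPM later (log2 fold change -1.78 ± 0.41, edgeR adjusted p 0.00140), with 860.5 and 864 CPM in adult ileum. Car8, a carbonic anhydrase relative without enzyme activity, fell from 135 and 148 to 14.1 and 15.5 CPM (log2 fold change -3.26 ± 0.17, edgeR adjusted p 1.35e-11).

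Genes of xenobiotic and retinoid metabolism were higher with few exceptions. Of 40 tested genes 35 passed as higher and 1 as lower, with a median of 4.01. Of the cytochrome P450 genes, which oxidise drugs and bile acids, Cyp3a11, Cyp2b10 and Cyp3a25 had 0 counts in both E16 libraries. Cyp3a11 reached 2051 and 2154 CPM (at least 13361-fold higher, edgeR adjusted p 5.50e-05) and Cyp2b10 reached 1050.3 and 1088 CPM (at least 6793-fold, edgeR adjusted p 4.13e-08). Cyp3a25 reached 1013 and 1032 CPM (at least 6498-fold, edgeR adjusted p 1.21e-05; DESeq2 adjusted p 0.0507). Reads of these P450 genes could be split among close paralogs by the counting. Cyp3a13, in contrast, was already at 109.7 and 125 CPM at E16 and at 1916 and 1957 CPM later (log2 fold change 4.05 ± 0.49, edgeR adjusted p 1.14e-06). The efflux pump Abcb1a went from 45.2 and 35.2 to 592 and 602 CPM (log2 fold change 3.89 ± 0.57, edgeR adjusted p 1.36e-05). Pregnane X receptor (Nr1i2), the nuclear receptor that activates Cyp3a and Cyp2b genes, stood at 16.4 and 16.9 CPM at E16 and 242 and 236 CPM later (log2 fold change 3.84 ± 0.41, edgeR adjusted p 4.35e-07). The retinol carrier Rbp2 was at 3.27 and 2.52 CPM at E14, 688 and 669 CPM at E16 and 6899 and 6521 CPM later (log2 fold change 3.31 ± 0.24, edgeR adjusted p 1.48e-09), and Aldh1a1, which makes retinoic acid, went from 131 and 116 to 1952 and 1927 CPM (log2 fold change 3.98 ± 0.62, edgeR adjusted p 2.17e-05). The retinol dehydrogenase Dhrs9 was the 1 member called lower, at 15.4 and 10.5 CPM at E16 and 1.73 and 1.32 CPM later (log2 fold change -3.09 ± 0.76, edgeR adjusted p 0.00222).

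In the urea cycle and gluconeogenesis list, 4 of 17 genes were called higher and 5 lower (23.5% and 29.4%, beside 20.1% and 22.1% of all genes; median 0.40), or 3 and 3 without E16 replicate 1. Ass1, which makes the arginine precursor argininosuccinate, stood at 4.31 and 4.73 CPM at E14, 133 and 117 CPM at E16 and 2.47 and 2.36 CPM in the libraries labelled E18 (log2 fold change -5.7 ± 0.36, edgeR adjusted p 2.20e-10). Oat went from 3328 and 3336 to 851 and 835 CPM (log2 fold change -1.98 ± 0.27, edgeR adjusted p 5.16e-06) and Aldh18a1 from 899 and 859 to 261 and 263 CPM (log2 fold change -1.74 ± 0.29, edgeR adjusted p 4.73e-05), both enzymes of proline and ornithine synthesis. Cps1, the first urea cycle enzyme, stood at 3789 and 3357 CPM at E16 and 1305 and 1264 CPM later and was not called (log2 fold change -1.48 ± 0.70, edgeR adjusted p 0.0801), nor was Otc at 225 and 226 CPM at E16 and 358 and 374 CPM later (log2 fold change 0.70 ± 0.68, edgeR adjusted p 0.407). With upper quartile scaling Cps1 was called at -1.76. Of the gluconeogenic enzymes, Pck1 went from 123 and 101 to 775 and 778 CPM (log2 fold change 2.79 ± 0.52, edgeR adjusted p 2.17e-04) and G6pc from 2.47 and 6.77 to 152 and 146 CPM (log2 fold change 5.01 ± 0.97, edgeR adjusted p 6.29e-04; DESeq2 adjusted p 0.121).

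Fatty acid oxidation rose from E14 to E16, when 24 of 26 genes were called higher and 0 lower, and was mixed afterwards, with 8 called higher and 3 lower (median 0.19; -0.10 to 0.22 over the alternatives). The thioesterase Acot1 fell from 129 and 129 to 7.4 and 6.53 CPM (log2 fold change -4.22 ± 0.18, edgeR adjusted p 9.74e-13), and the thiolase Acaa2 from 1575 and 1500.3 to 669 and 664 CPM (log2 fold change -1.21 ± 0.14, edgeR adjusted p 6.91e-07). Pdk4, which blocks glucose oxidation, went the other way, from 52.2 and 47.2 to 518 and 516 CPM (log2 fold change 3.38 ± 0.35, edgeR adjusted p 1.17e-07). Cpt1a, the mitochondrial entry enzyme, was at 157 and 152 CPM at E16 and 248 and 252 CPM later, below the fold minimum (log2 fold change 0.69 ± 0.28, edgeR adjusted p 0.0405). Oxidative phosphorylation subunits, 30 of which had been called higher from E14 to E16, were seldom called: of 72 tested, 2 were called higher (1 without E16 replicate 1) and 1 lower, under the background shares. Their median was 0.15, and it ran from -0.14 to 0.18 over the alternatives, so its sign depended on the setting. Atp5b, the catalytic subunit of ATP synthase, stood at 2103 and 1949 CPM at E14, 3752 and 3638 CPM at E16 and 4231 and 4195 CPM later (log2 fold change 0.19 ± 0.17, edgeR adjusted p 0.350). The cytochrome oxidase subunit Cox7c was the 1 called lower, from 300.3 and 285 to 103 and 97.8 CPM (log2 fold change -1.55 ± 0.23, edgeR adjusted p 1.08e-05).

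Cholesterol synthesis was lower, with 10 of 23 genes called lower and 3 higher (median -0.81). Squalene epoxidase (Sqle) stood at 195 and 212 CPM at E16 and 44.4 and 46 CPM later (log2 fold change -2.17 ± 0.12, edgeR adjusted p 5.33e-11), farnesyl diphosphate synthase (Fdps) at 412 and 446 CPM at E16 and 82.5 and 78 CPM later (log2 fold change -2.42 ± 0.11, edgeR adjusted p 3.79e-12), and squalene synthase (Fdft1) at 244 and 239 CPM at E16 and 53.4 and 54.7 CPM later (log2 fold change -2.16 ± 0.18, edgeR adjusted p 1.05e-08). Against the list, the late enzyme Sc5d went from 55.6 and 57 to 160.1 and 162 CPM (log2 fold change 1.52 ± 0.24, edgeR adjusted p 2.16e-05).

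Metal handling genes had 5 of 22 called higher and 8 lower, or 22.7% and 36.4%, beside 20.1% and 22.1% of all genes. Their median was 0.26 and ran from -0.02 to 0.31 over the alternatives. The metallothioneins, which bind zinc and copper, rose to E16 and then fell. Mt1 stood at 237 and 184 CPM at E14, 1413 and 1306 CPM at E16 and 85.1 and 84.4 CPM later (log2 fold change -4.0 ± 0.27, edgeR adjusted p 4.53e-10), and Mt2 went from 346 and 350.2 to 23.7 and 25.5 CPM (log2 fold change -3.82 ± 0.34, edgeR adjusted p 2.02e-08). Ferroportin (Slc40a1), the iron exporter, fell from 432 and 418 to 33.9 and 36.7 CPM (log2 fold change -3.59 ± 0.15, edgeR adjusted p 9.74e-13), while its partner oxidase Heph went from 121 and 117 to 567 and 569 CPM (log2 fold change 2.25 ± 0.21, edgeR adjusted p 3.77e-08). The surface iron reductase Cybrd1 stood at 17.6 and 13.7 CPM at E16 and 0.493 and 1.26 CPM later (edgeR adjusted p 2.84e-05). The exporter and the reductase were thus low beside a high oxidase. The zinc importer Slc39a4 went from 95.3 and 79.9 to 428 and 432 CPM (log2 fold change 2.29 ± 0.37, edgeR adjusted p 2.77e-05), and Slc30a10, a manganese exporter, from 5.99 and 10.2 to 87.4 and 84.5 CPM (log2 fold change 3.41 ± 0.40, edgeR adjusted p 1.22e-06). Ferritin heavy chain (Fth1) went from 1875 and 1753 to 4458 and 4674 CPM (log2 fold change 1.33 ± 0.16, edgeR adjusted p 9.16e-07). The light chain Ftl1, named after its value was seen, went the other way. It fell from 4929 and 4726 to 1773 and 1782 CPM (log2 fold change -1.44 ± 0.13, edgeR adjusted p 1.63e-08). Transferrin receptor (Tfrc) stood at 444 and 509 CPM at E16 and 283 and 285 CPM later, below the fold minimum (log2 fold change -0.75 ± 0.18, edgeR adjusted p 0.00194), and passed it at -1.04 with upper quartile scaling.

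The endocytic and lysosomal apparatus, with which newborn enterocytes digest milk protein inside the cell, was lower. Of 25 tested genes 12 passed as lower and 3 as higher (median -0.94). Mcoln3, a lysosomal cation channel, stood at 6.57 and 8.72 CPM at E14, 76.7 and 70.4 CPM at E16 and 1.23 and 0.988 CPM in the libraries labelled E18 (log2 fold change -6.06 ± 0.56, edgeR adjusted p 4.39e-08). The lysosomal beta-galactosidase Glb1 went from 59.5 and 58.7 CPM at E14 to 427 and 434 CPM at E16 and 53.1 and 52.3 CPM later (log2 fold change -3.03 ± 0.19, edgeR adjusted p 1.99e-10). Dab2, the clathrin adaptor for large receptors, stood at 90.2 and 80.2 CPM at E16 and 0.0822 and 0.329 CPM later (edgeR adjusted p 2.02e-08). Megalin (Lrp2), 1 of these receptors, went from 13.2 and 13.9 CPM to 0 counts in both libraries labelled E18, at least 65.9-fold lower (edgeR adjusted p 0.00148). The other receptor, cubilin (Cubn), did the opposite, from 69.1 and 47.9 to 888 and 888 CPM (log2 fold change 3.92 ± 0.59, edgeR adjusted p 1.78e-05). Its anchor Amn was at 245 and 235 CPM at E16 and 212 and 208 CPM later and was not called (log2 fold change -0.20 ± 0.96, edgeR adjusted p 0.904). The cathepsin Ctsh went from 30.9 and 38.8 to 91.1 and 88.2 CPM (log2 fold change 1.36 ± 0.19, edgeR adjusted p 4.20e-06). The mesenchyme marker sum and the macrophage genes Csf1r, C1qa and C1qb, given above, were lower as well. Their part in this list was not tested.

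**Figure D5:**
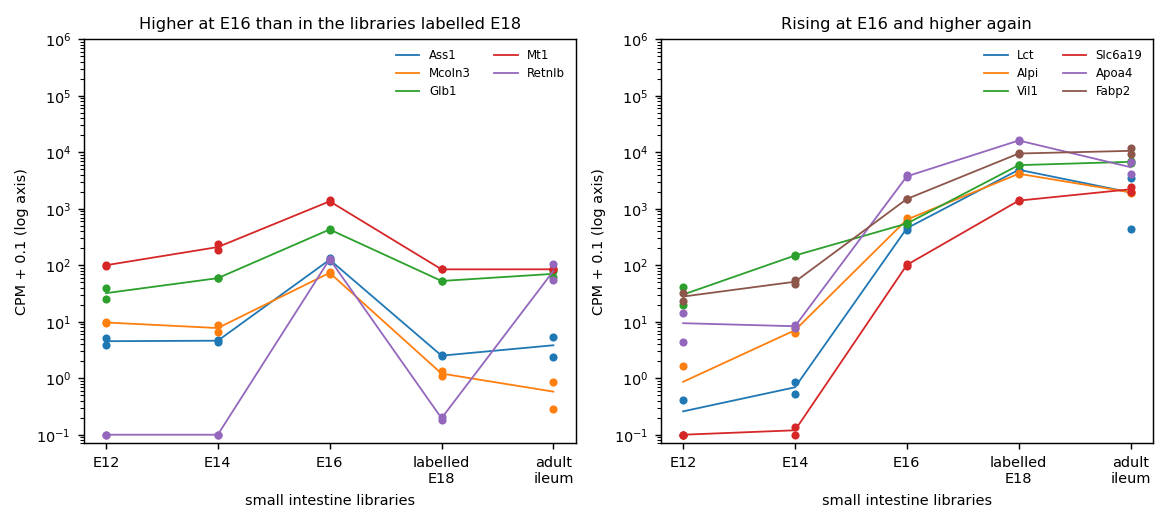
CPM + 0.1 (log axis) in small intestine libraries at E12, E14, E16, labelled E18 and in adult ileum; points are single libraries and lines join group means. Left, Ass1, Mcoln3, Glb1, Mt1 and Retnlb are highest at E16, with Mt1 at 1413 and 1306 CPM there and 85.1 and 84.4 CPM in the libraries labelled E18; right, Lct, Alpi, Vil1, Slc6a19, Apoa4 and Fabp2 rise at E16 and again.

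Among 40 transcription factors of the intestinal epithelium, 13 were called higher and 6 lower (median 0.57). The main identity factor of the intestine, Cdx2, stood at 196 and 218 CPM at E16 and 199.9 and 206 CPM later and was not called (log2 fold change -0.03 ± 0.28, edgeR adjusted p 0.969). Hnf4a, its partner in enterocytes, was at 389 and 349 CPM at E16 and 729 and 732 CPM later, just under the fold minimum (log2 fold change 0.99 ± 0.34, edgeR adjusted p 0.0196) and over it at 1.01 with DESeq2. Cdx1, the relative of Cdx2, was lower, at 324 and 299 CPM at E16 and 91.3 and 92.4 CPM later (log2 fold change -1.76 ± 0.53, edgeR adjusted p 0.00833), but its adjusted p was 0.0560 without the first and 0.0547 without the second library labelled E18 and 0.0766 with DESeq2. The nuclear receptor for vitamin D (Vdr) showed the largest rise of the list, from 21.4 and 17.4 to 689 and 698 CPM (log2 fold change 5.16 ± 0.48, edgeR adjusted p 2.99e-08). The sugar sensor Mlxipl went from 24 and 17.7 to 341 and 357 CPM (log2 fold change 4.06 ± 0.24, edgeR adjusted p 7.83e-11), and Klf4, a factor of differentiated cells, from 35.6 and 32.2 to 409 and 417 CPM (log2 fold change 3.61 ± 0.21, edgeR adjusted p 9.41e-11). Those 3 factors of mature enterocytes were thus far higher. Prdm1, a repressor known for holding back adult enterocyte genes before weaning, stood at 163 and 173 CPM at E14, 89.4 and 70.5 CPM at E16 and 22.8 and 25.1 CPM later (log2 fold change -1.74 ± 0.23, edgeR adjusted p 3.10e-06). Sox9, of the dividing pockets, fell from 93.2 and 73.3 to 11.8 and 13.1 CPM (log2 fold change -2.73 ± 0.18, edgeR adjusted p 2.66e-10).

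Goblet cell genes were higher at E16 than at E14, with 16 of 20 called higher and 0 lower. Afterwards 3 were called higher and 5 lower (median -0.27). The later counts were 15% and 25% of the list, beside 20.1% and 22.1% of all genes. Without E16 replicate 2 these counts were 1 and 4, and without replicate 2 of the libraries labelled E18 they were 3 and 3. Muc2, the main gel mucin, stood at 0.177 and 0.276 CPM at E14, 32.1 and 23.9 CPM at E16 and 496 and 507 CPM later (log2 fold change 4.16 ± 0.65, edgeR adjusted p 2.01e-05). Retnlb, a secreted antibacterial protein, was the reverse, with 0 counts at E14, 125 and 132 CPM at E16 and 0.0822 and 0.11 CPM in the libraries labelled E18 (edgeR adjusted p 6.91e-06), and 54 and 105 CPM in the adult. The lectin Zg16 went from 106 and 88.7 to 1635 and 1559 CPM (log2 fold change 4.03 ± 1.12, edgeR adjusted p 0.00536), with an adjusted p of 0.0513 without E16 replicate 2 and of 0.0655 with DESeq2. Tff3, the trefoil peptide of goblet cells, was at 649 and 609 CPM at E16 and 749.6 and 767 CPM later and not called (log2 fold change 0.27 ± 0.26, edgeR adjusted p 0.391). Of the goblet regulators, Spdef stood at 23.7 and 23.3 CPM at E16 and 13.7 and 12.6 CPM later and was not called (log2 fold change -0.84 ± 0.38, edgeR adjusted p 0.0703), and Foxa3 fell from 29.9 and 30.8 to 6.66 and 7.63 CPM (log2 fold change -2.08 ± 0.20, edgeR adjusted p 6.43e-08). With upper quartile scaling Spdef was called lower at -1.12.

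Of 33 enteroendocrine genes 10 were called lower and 2 higher (median -1.14, or -1.0 with genes at 0 at their bound). The count called lower ran from 4 to 17 over the alternatives, and from 4 to 6 when any 1 of the 4 libraries was left out, with 1 higher, so it was not stably above the 22.1% of all genes. Neurog3, the switch of endocrine progenitors, stood at 11.3 and 7.04 CPM at E16 and 2.14 and 2.2 CPM later (log2 fold change -2.08 ± 0.58, edgeR adjusted p 0.00506). The hormone Pyy fell from 20.3 and 20.1 to 1.15 and 1.54 CPM (log2 fold change -3.88 ± 0.82, edgeR adjusted p 4.91e-04), whereas the granule protein Chga went from 34.2 and 42.9 to 182 and 184 CPM (log2 fold change 2.24 ± 0.59, edgeR adjusted p 0.00327). Cholecystokinin (Cck) was at 90 and 103 CPM at E16 and 94.4 and 101 CPM later and not called (log2 fold change 0.02 ± 0.60, edgeR adjusted p 1.00), with 7.83 and 7.52 CPM in adult ileum. In the Paneth and tuft cell list 6 of 20 were called higher and 4 lower, and its median of 1.13 ran from -0.59 to 1.17 over the alternatives. These counts were 4 and 2 without E16 replicate 1 or without either library labelled E18. Ang4, a Paneth cell antimicrobial, was at 1.26 and 1.2 CPM at E16 and 29.4 and 32.5 CPM later (log2 fold change 4.65 ± 1.07, edgeR adjusted p 0.00122) and at 1507 and 2639.5 CPM in the adult. The tuft cell channel Trpm5 had 0 counts at E16 and stood at 6.16 and 6.81 CPM later, at least 41.2-fold higher (edgeR adjusted p 2.10e-04), against 90.5 and 233 CPM in the adult. The tuft cell kinase Dclk1 was at 2.21 and 3.77 CPM at E16 and 1.07 and 2.03 CPM later. Both Paneth and tuft genes thus remained under adult ileum levels in the libraries labelled E18.

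Genes of epithelial defence were higher, with 20 of 35 called higher and 3 lower (median 2.36). Pigr, which carries antibodies across the epithelium, stood at 1.55 and 0.749 CPM at E14, 19.7 and 25.3 CPM at E16 and 13255 and 13314 CPM in the libraries labelled E18 (log2 fold change 9.21 ± 1.04, edgeR adjusted p 4.29e-07). Of the C-type lectins that kill bacteria or keep them off the surface, Reg3b went from 8.96 and 10.7 to 4739 and 4752 CPM (log2 fold change 8.92 ± 1.76, edgeR adjusted p 3.63e-04). Reg3g went from 6.14 and 3.06 to 912 and 953 CPM (log2 fold change 7.66 ± 1.69, edgeR adjusted p 0.00124). Reg3a had 7 and 0 counts at E16 and 715 and 709.7 CPM later (edgeR adjusted p 1.10e-06). These 3 lectins were thus low at E16 and far higher in the later pair. Of the antigen-presenting genes, B2m went from 292 and 299 to 2522 and 2652 CPM (log2 fold change 3.13 ± 0.20, edgeR adjusted p 1.88e-10) and H2-K1 from 102 and 98.6 to 2751 and 2729 CPM (log2 fold change 4.77 ± 0.27, edgeR adjusted p 4.09e-11). The sum of immune cell markers moved with them, from 495 and 470 to 1049 and 1092 CPM, and its part in the result was not tested. The flagellin receptor Tlr5 stood at 7.4 and 7.42 CPM at E16 and 0.329 and 0.439 CPM later (edgeR adjusted p 0.00311), and the membrane mucin Muc1 at 9.61 and 10.1 CPM at E16 and 0.247 and 0.604 CPM later (edgeR adjusted p 1.90e-08). Tlr2 was the third called lower, from 7.85 and 8.02 to 1.56 and 2.03 CPM (log2 fold change -2.13 ± 0.38, edgeR adjusted p 9.52e-05).

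Cell division genes were lower, with 35 of 46 called lower and 2 higher (median -1.57), and the count called lower ran from 35 to 39 over the alternatives. When any 1 of the 4 libraries was left out, 1 gene was called higher. Cyclin B1 (Ccnb1), which drives mitosis, stood at 241 and 232 CPM at E14, 132 and 139.9 CPM at E16 and 20.1 and 21.4 CPM later (log2 fold change -2.71 ± 0.15, edgeR adjusted p 3.52e-11). Cyclin E1 (Ccne1), of the entry into S phase, went from 62.2 and 48 to 6.57 and 8.45 CPM (log2 fold change -2.87 ± 0.20, edgeR adjusted p 6.84e-10), and the replication helicase subunit Mcm6 from 425 and 424 to 85.2 and 86.8 CPM (log2 fold change -2.3 ± 0.14, edgeR adjusted p 1.16e-10). The genes named here for mitosis, entry and replication, Ccnb1, Ccne1 and Mcm6, were thus lower. Of the genes whose promoters are printed above, Ccnb2 went from 90.3 and 79.3 to 29 and 28.5 CPM (log2 fold change -1.56 ± 0.17, edgeR adjusted p 2.32e-07) and Aurka from 65.5 and 65.2 to 14.3 and 16.7 CPM (log2 fold change -2.07 ± 0.22, edgeR adjusted p 2.23e-07). Against the list, the proliferation marker Mki67 was higher, at 70.2 and 65.6 CPM at E16 and 194 and 191 CPM later (log2 fold change 1.5 ± 0.20, edgeR adjusted p 2.52e-06). The sliding clamp Pcna was not called, at 174 and 184 CPM at E16 and 179.9 and 173 CPM later (log2 fold change -0.02 ± 0.10, edgeR adjusted p 0.913).

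The list of cell cycle inhibitors and brakes showed 9 of 13 called higher and 2 lower (median 1.58). Its largest rise was that of Krt20, a keratin of differentiated villus cells and no inhibitor, whose values are given with the villus tip. Cdkn1b (p27) stood at 3.27 and 3.82 CPM at E16 and 50.5 and 52.2 CPM later (log2 fold change 3.85 ± 0.59, edgeR adjusted p 1.70e-05), and the antiproliferative Btg2 at 302 and 309 CPM at E16 and 893 and 937 CPM later (log2 fold change 1.58 ± 0.41, edgeR adjusted p 0.00264). Cdkn1c (p57), an imprinted inhibitor, went from 245 and 225 CPM at E14 to 1335 and 1283 CPM at E16 and fell to 21.6 and 23.4 CPM (log2 fold change -5.86 ± 0.20, edgeR adjusted p 5.73e-14). Ndrg1, a stress-responsive growth brake, fell from 1954 and 2035 to 250.4 and 259.7 CPM (log2 fold change -2.97 ± 0.12, edgeR adjusted p 5.04e-13). Genes of the pockets between villi and of stem cells had 7 of 27 called higher and 7 lower. This was 25.9% each way, near the 20.1% and 22.1% of all genes. Their median was -0.01 and ran from -0.30 to 0.05 over the alternatives, with 3 called higher when only wild-type small intestine was fitted. Lgr5, the stem cell receptor, stood at 37.6 and 25.3 CPM at E16 and 5.75 and 6.81 CPM later (log2 fold change -2.32 ± 0.34, edgeR adjusted p 1.06e-05), and Ascl2, its partner factor, at 12.4 and 12.6 CPM at E16 and 4.77 and 4.5 CPM later (log2 fold change -1.43 ± 0.37, edgeR adjusted p 0.00296). Olfm4, by contrast, went from 1.16 and 0.71 CPM at E14 to 56 and 59.4 CPM at E16 and 408 and 420.2 CPM later (log2 fold change 2.84 ± 0.32, edgeR adjusted p 4.52e-07). The Wnt target Axin2 went from 3.07 and 2.57 to 39.9 and 39.2 CPM (log2 fold change 3.81 ± 0.55, edgeR adjusted p 7.92e-06), and Sp5, also a Wnt target, stood at 0.101 and 0.437 CPM at E16 and 30.3 and 28.3 CPM later (edgeR adjusted p 1.14e-10). Axin2 and Sp5 were thus higher while Lgr5 and Ascl2 were lower. Smoc2 was at 36.2 and 37.4 CPM at E16 and 46.2 and 40.8 CPM later and not called (log2 fold change 0.24 ± 0.21, edgeR adjusted p 0.350).

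Ligands, receptors and modulators of Wnt, Notch, hedgehog and BMP signalling showed 7 of 40 called higher and 12 lower (median -0.38). The Wnt receptor Fzd5 went from 12.9 and 13.7 to 217 and 219 CPM (log2 fold change 4.04 ± 0.26, edgeR adjusted p 2.20e-10). The Wnt inhibitor Sfrp1 stood at 28.6 and 28.8 CPM at E16 and at 0 counts in both libraries labelled E18, at least 139.7-fold lower (edgeR adjusted p 6.64e-11). The BMP ligand Bmp4 was at 9.96 and 14.5 CPM and then at 0 counts, at least 59.5-fold lower (edgeR adjusted p 8.33e-07). Sfrp1 and Bmp4 are also made by gut mesenchyme, whose marker sum fell from 1553 and 1701 to 40.6 and 38.8 CPM, and its part in these values was not tested. The BMP response gene Id1 went from 33.6 and 35 to 99 and 96.5 CPM (log2 fold change 1.51 ± 0.29, edgeR adjusted p 1.69e-04), and the Notch ligand Dll4 from 14.4 and 6.5 to 33.1 and 36.2 CPM (log2 fold change 1.73 ± 0.39, edgeR adjusted p 9.97e-04). Of the hedgehog ligands, Ihh was not called, at 159 and 156 CPM at E16 and 148 and 155 CPM later (log2 fold change -0.06 ± 0.18, edgeR adjusted p 0.821), while Shh stood at 176 and 213 CPM at E14, 6.09 and 9.94 CPM at E16 and 0.247 and 0.494 CPM later (edgeR adjusted p 1.29e-07).

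Fetal growth and timing genes were lower almost without exception. Of 24 tested, 22 were called lower and 0 higher, with a median of -6.30, or -5.66 with genes at 0 at their bound. H19, whose levels are given above, was called at an edgeR adjusted p of 6.95e-16. Igf2 had a log2 fold change of -8.73 ± 0.37 (edgeR adjusted p 8.22e-13). Dlk1, an imprinted Notch relative, went from 300.1 and 289 CPM at E14 to 36.4 and 34.7 CPM at E16 and 0 counts in both libraries labelled E18, at least 173-fold lower (edgeR adjusted p 1.78e-11). Grb10, an imprinted growth suppressor, stood at 249.7 and 213 CPM at E16 and 0.493 and 0.494 CPM later (edgeR adjusted p 1.55e-13). These 4 imprinted genes were thus at or near 0 in the later pair. The fetal RNA binding proteins followed. Igf2bp3 fell from 236 and 218 to 5.18 and 5.16 CPM (log2 fold change -5.45 ± 0.15, edgeR adjusted p 5.68e-15), and Igf2bp1 from 32 and 26.8 CPM to 0 counts, at least 143-fold lower (edgeR adjusted p 2.36e-10). Trim71, a let-7 target of early development, also went to 0 counts, from 18.9 and 22.9 CPM, at least 102-fold lower (edgeR adjusted p 1.15e-08). From E14 to E16, 12 of the 24 had been called lower and 1 higher. Several of these genes are also expressed in mesenchyme, whose sum fell alongside, and its part was not tested.

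Position along the gut was read from regional genes. Of 10 tested proximal genes 4 were called higher and 3 lower, and of 11 distal genes 3 higher and 1 lower (0 lower without E16 replicate 1 or replicate 2 of the later pair), while 0 of 11 colon genes were called, of which 7 were at 0 counts in both E16 libraries and 8 in both libraries labelled E18, so that most could not be called. Gata4, the factor of jejunum and duodenum, stood at 215 and 230.1 CPM at E16 and 260.4 and 265 CPM later and was not called (log2 fold change 0.24 ± 0.21, edgeR adjusted p 0.348), with 130.2 and 115 CPM in adult ileum. Onecut2 fell from 144 and 103 CPM at E14 to 21.8 and 16.8 CPM at E16 and was at 87.3 and 85.7 CPM in the libraries labelled E18 (log2 fold change 2.16 ± 0.24, edgeR adjusted p 3.23e-07), against 2.92 and 3.85 CPM in adult ileum. The alcohol dehydrogenase Adh6a went from 3.27 and 6.22 to 1749 and 1682 CPM (log2 fold change 8.5 ± 1.27, edgeR adjusted p 5.41e-05). Fabp6, the ileal bile acid carrier, was at 0.503 and 0.819 CPM at E16 and 0.0822 and 0.329 CPM later, and at 4009 and 4229 CPM in adult ileum. The ileal bile acid importer Slc10a2 stood at 2.06 and 1.31 CPM at E16 and 2.3 and 2.14 CPM later and at 195 and 198 CPM in the adult. The libraries labelled E18 thus held little of this ileal pair. The regional lists gave no single direction: of the proximal genes Slc40a1 and Cybrd1, given above, were called lower, and of the distal genes Slc51b, a bile acid exporter subunit, went from 7.8 and 7.92 to 64.8 and 59.3 CPM (log2 fold change 2.98 ± 0.59, edgeR adjusted p 7.18e-04).

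Genes of the villus tip, the oldest enterocytes, had 8 of 12 called higher and 0 lower (median 2.86). Adenosine deaminase (Ada) stood at 6.79 and 7.53 CPM at E16 and 558 and 572 CPM later (log2 fold change 6.3 ± 0.77, edgeR adjusted p 1.21e-06), and the nuclear RNA Neat1 at 23.1 and 23 CPM at E16 and 573 and 576 CPM later (log2 fold change 4.64 ± 0.62, edgeR adjusted p 3.29e-06). Keratin 20 (Krt20) went from 27.1 and 16.3 CPM at E14 to 107 and 109 CPM at E16 and 2435 and 2346 CPM later (log2 fold change 4.47 ± 0.34, edgeR adjusted p 2.69e-09), and Enpp3 from 41.9 and 39.9 to 753 and 762 CPM (log2 fold change 4.21 ± 0.59, edgeR adjusted p 5.96e-06). The later protocol releases villi and the earlier one digests the gut, so stage and villus position cannot be told apart. Among junction and keratin genes, Cldn15, a pore-forming claudin of the villus, went from 64.6 and 59.9 to 1113 and 1113 CPM (log2 fold change 4.16 ± 0.37, edgeR adjusted p 1.81e-08). Cldn2, a pore of crypts and of the young gut, fell from 301 and 298 to 48.7 and 51.8 CPM (log2 fold change -2.57 ± 0.48, edgeR adjusted p 1.39e-04), and Krt7 fell from 321 and 301 to 63.4 and 65.3 CPM (log2 fold change -2.27 ± 0.22, edgeR adjusted p 5.87e-08). E-cadherin (Cdh1) was not called, at 778 and 699 CPM at E16 and 756 and 751 CPM later (log2 fold change 0.03 ± 0.12, edgeR adjusted p 0.881).

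Of 26 genes that respond within minutes to handling and heat, 6 were called higher and 4 lower (median 0.42), shares close to those of all tested genes. With upper quartile scaling 5 were called higher and 7 lower (median 0.13). Hspa1a, an inducible heat shock chaperone, went from 6.04 and 11.8 to 389 and 401 CPM (log2 fold change 5.47 ± 0.67, edgeR adjusted p 1.11e-06), with 1.41 and 1.88 CPM in adult ileum. Its near-identical copy Hspa1b, with which reads could be shared, went from 7.75 and 10.1 to 488 and 504 CPM (log2 fold change 5.8 ± 0.59, edgeR adjusted p 1.06e-07), with 4.53 and 7.35 CPM in adult ileum. Fosb went from 9.91 and 7.1 CPM at E14 to 281 and 270.4 CPM at E16 and 1293 and 1339 CPM later (log2 fold change 2.25 ± 0.32, edgeR adjusted p 6.87e-06), with 2.83 and 2.56 CPM in the adult. Fos was already at 1557 and 1652 CPM at E16 and stood at 1798 and 1832 CPM (log2 fold change 0.18 ± 0.31, edgeR adjusted p 0.662). Nr4a1 was lower, at 394 and 411 CPM at E16 and 119.7 and 121 CPM later (log2 fold change -1.74 ± 0.49, edgeR adjusted p 0.00492). The part of these genes in the other results was not tested.

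Outside the lists, the largest changes repeated many genes above. Further genes higher in the libraries labelled E18 were the sulfurtransferase Tstd1, with 0 counts at E16 and 54.9 and 51.3 CPM later (at least 338-fold), and the desmosome gene Pkp1, with 0 counts and 26.1 and 27.5 CPM (at least 170.2-fold). The retinol and steroid dehydrogenase Hsd17b6 had 0 and 2 counts at E16 and 250.2 and 258 CPM later (edgeR adjusted p 1.38e-07). Nlrp9b, an epithelial sensor of viral RNA, had 0 and 1 counts and then 113 and 115 CPM (edgeR adjusted p 3.24e-07). These genes were all but undetected at E16. Among genes lower, Gpc3, a fetal growth-limiting glypican, went from 400.3 and 423 CPM to 0 and 1 counts (edgeR adjusted p 7.76e-16). The iron-binding surface protein Mfi2 stood at 0.748 and 0.473 CPM at E14 and 406 and 365 CPM at E16, with 0 and 1 counts later (edgeR adjusted p 1.88e-06). Obsl1, a cytoskeletal adaptor tied to growth, went from 105 and 100.3 CPM to 0 counts (at least 498-fold lower, edgeR adjusted p 3.18e-11). Genes of other tissues were among the largest falls. The pancreatic enzyme Cpa1 stood at 135 and 105 CPM at E16 and at 0 counts later (at least 585-fold lower), and so did Cela2a from 114 and 104 CPM (at least 529-fold). The matrix genes Lum, from 59.4 and 66.9 CPM, and Col5a1, from 71.1 and 77.5 CPM, also had 0 counts in both libraries labelled E18.

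The change from E16 was set against the step from E12 to E14, which shares no library with it. That step called 1952 genes higher (11.3%) and 843 lower (4.89%). The genes higher in both numbered 661, which are 19.1% of those higher after E16 and 33.9% of those higher after E12. For lower genes the overlap was 343, or 9.02% and 40.7% of the lists. A total of 147 genes were lower after E12 and higher after E16, or 4.25% of those higher after E16, beside 4.89% of all genes. Another 370 were higher and then lower, or 9.73% of those lower after E16, beside 11.3% of all genes. Neither share exceeded that of all genes. A fit of the E12 and E14 libraries alone called only 125 genes higher and 89 lower, so these shares rest on the spread estimated over all 27 embryonic libraries.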

How the data were processed

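RNA-seq read counts per gene symbol, deposited by the authors as 1 table of raw counts, were used. STAR 2.5.3a, HTSeq and the mouse build mm9 are named per the submitters' processing notes, with no role or setting, and strand handling is not given in the sources used here. In the adult columns 2 blank rows had pushed later genes out of register, so the columns were closed up. A further 2 columns matched no sample and were not used.

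One model covered all 27 embryonic libraries (13 groups) in edgeR 4.0.16 (R 4.3.3): TMM scaling, a low-count filter with a minimum of 10, and the quasi-likelihood test with Benjamini-Hochberg adjustment over 17239 of 24015 genes. The standard error is the log2 fold change over the root of F. Adult libraries were put on the same scale for levels only. In a simulation, counts were redrawn at the fitted spread, with the E18 means equal to E16 except in the changed genes. There 74% of 100 genes with a log2 fold change of 1.5 and 89% of 100 with 3 were called. Of 16910 genes tested, 10 unchanged ones were called. Few genes changed in it, against 42.1% called in the data, so it does not measure false calls under so broad a change.

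In each list the text names up to 4 called members each way, taken by size of change among those of at least 5 CPM in either group, and up to 4 by role. Outside the lists it draws on the 12 called genes each way that changed most at an average log2 CPM of at least 3. A few list members are counted but not reported here. The members and lists were chosen with earlier results of these data known. Alternatives covered scaling, tool, filter, fold minimum, the libraries fitted, each library left out, thinning and a replicate block.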

Additional observations from a re-analysis of the deposited data

How the results depend on the processing

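The 7260 calls between E16 and the libraries labelled E18 came to between 6000 and 9607 under every alternative run, with 2637 to 4513 higher and 3165 to 5094 lower, the highest counts being those without a fold minimum. Leaving out 1 of the 4 libraries gave 6233 to 6610 calls, 3028 to 3134 of them higher and 3165 to 3543 lower. DESeq2 1.42.0 called 7182 genes. Without the libraries labelled as Cdx2 deleted at E13 and at E15, an alternative chosen after seeing the data, 6906 genes were called. Samples of the same replicate number share only that number (their deviations correlated at -0.003), and a fit with the replicate block in wild-type small intestine called 6000 genes. With the libraries of E12 and E14 alone, the step between them had 214 calls, 125 higher and 89 lower, against 2795. Of 277 genes refitted under each setting, 50 changed their call under at least 1 setting and 0 reversed while called. Upper quartile scaling brought the log2 fold change under 1 for Cdkn1a, Cldn3, Lipa, Ndufa1 and Stard4. The libraries labelled E18 differed from each other by 1.53 times counting noise (chi-square per degree of freedom over 12775 genes), against 9.39 for E16, and 6423 genes were called with that pair summed as 1 library. At these depths 3 counts correspond to 0.151 to 0.247 CPM, under which a gene is not detectable.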

Other observations

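The libraries labelled as Cdx2 deleted at E13 and at E15 (Cdx2f/f; Villin-Cre, of a B6;129 background), taken per the labels from embryos at day 16 and at day 18, held 0.66 to 0.99 CPM of H19, while those labelled as deleted at E10 (Cdx2f/f; Shh-Cre), from embryos at day 16, held 1078 to 1295 CPM. Across 17239 genes, Spearman's rho with adult ileum was 0.917 to 0.929 for the former and 0.682 to 0.690 for the latter. The X-linked RNA Xist stood at 42.8 and 52.2 CPM at E16 and at 0.164 and 0.165 CPM in the libraries labelled E18. Ddx3y, of the Y chromosome, stood at 13.9 and 15.7 CPM and at 86.8 and 95.4 CPM. These genes were chosen after their values were seen. Xist and Ddx3y mark female and male cells, so the mix of sexes differed between the groups as well, and its part was not tested.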
